A study of Mus musculus with 12 samples.

Results

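Hepatocyte chromatin lost accessibility in fasted mice at 2101 distal peaks, 6.18% of the 33996 distal peaks among 52530 peaks in all. Peaks counted as distal when their annotated distance to the nearest gene start exceeded 1 kb. They were chosen by their mean normalized reads, as lost when the log2 ratio of fasted over fed means, with 1 read added to each, was at or below -1 (a 2-fold loss) in fresh and in frozen liver alike. The fasting values that chose these peaks are given below as a description, without a test. At the opposite threshold 476 distal peaks, or 1.4%, had gained accessibility.

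The assay was ATAC-seq, which uses a transposase to cut accessible DNA and fit it with sequencing adapters. It was run on bead-bound hepatocyte nuclei of female HEP-INTACT mice, in which a tag on the nuclei of this cell type allows them to be drawn out of whole liver. Of 6 mice, 3 had been without food for 16 h from ZT12, the start of their active phase, and 3 had eaten freely and were killed at the same hour. Every mouse gave a fresh and a frozen library, so there were 12 libraries in the groups fresh fasted, fresh fed, frozen fasted and frozen fed, 3 in each. The driver of the nuclear tag and the age of the mice are not stated in the labels. Libraries held 3692000 to 14506000 reads in peaks, to the nearest 1000. Columns of the table carry letters A to C within a group. Libraries of 1 letter and feeding state deviated together and are treated here as 1 mouse.

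Distal open regions are mostly enhancers, where transcription factors bind and from which they act on genes at a distance. In the fed liver insulin raises SREBP-1c, encoded by Srebf1, and with it fat synthesis, while cells low in sterol release SREBP-2, which raises cholesterol synthesis and uptake. Growth hormone acts through STAT5, and fasting blunts that signal. In fasting, PPARA, glucocorticoid and glucagon signals take over and turn the hepatocyte to fat oxidation, ketone production and glucose output.

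Sequence could be read for few of the lost peaks, because only windows around RefSeq gene starts (GRCm38.p6, the same coordinates as mm10) were at hand. Of 2023 lost peaks searched, 19 overlapped such a window (0.939%), against 576 of 32856 distal peaks (1.75%). The 4 that were covered whole are shown, with 1 more that holds a STAT match. Each is named by its nearest annotated gene and is written 5′ to 3′ along the strand of the RefSeq gene whose start window covers it. Capitals mark matches to any of 23 short motifs, searched on both strands.

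Gp1ba (chr11:70631954-70632154, minus strand): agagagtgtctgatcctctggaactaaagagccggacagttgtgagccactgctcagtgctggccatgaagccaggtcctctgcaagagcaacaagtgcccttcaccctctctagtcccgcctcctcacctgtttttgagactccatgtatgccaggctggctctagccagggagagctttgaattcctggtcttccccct
Fam19a2 (chr10:123536249-123536449, minus strand): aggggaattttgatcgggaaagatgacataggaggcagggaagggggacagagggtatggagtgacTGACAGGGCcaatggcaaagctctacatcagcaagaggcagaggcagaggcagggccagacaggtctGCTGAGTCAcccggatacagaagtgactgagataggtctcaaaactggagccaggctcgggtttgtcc
Mir6366 (chr16:18169283-18169483, plus strand): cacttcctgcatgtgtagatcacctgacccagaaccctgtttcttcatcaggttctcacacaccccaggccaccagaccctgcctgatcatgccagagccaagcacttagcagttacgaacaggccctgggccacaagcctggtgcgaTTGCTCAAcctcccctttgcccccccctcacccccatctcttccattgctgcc
Cytl1 (chr5:37774120-37774320, minus strand): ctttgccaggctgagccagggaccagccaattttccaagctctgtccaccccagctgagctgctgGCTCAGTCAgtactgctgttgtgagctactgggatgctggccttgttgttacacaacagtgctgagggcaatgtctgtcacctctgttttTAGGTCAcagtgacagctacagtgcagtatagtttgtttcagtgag
St6gal1 (chr16:23326748-23326932, minus strand): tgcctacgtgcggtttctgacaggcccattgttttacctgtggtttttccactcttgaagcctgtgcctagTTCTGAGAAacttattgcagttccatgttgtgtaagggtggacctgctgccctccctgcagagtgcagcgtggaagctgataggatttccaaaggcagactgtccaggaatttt

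The Gp1ba peak held no match. In the Fam19a2 peak the capitals mark 2 matches to the antioxidant response element core of NRF2 (TGACNNNGC), and the later one, on the opposite strand, overlaps an AP-1 site (TGANTCA). The Mir6366 peak held a C/EBP core (TTGCNNAA), and the Cytl1 peak an NRF2 core and a ROR core (TAGGTCA). The St6gal1 peak held the STAT palindrome (TTCNNNGAA). Over the first 201 bases of 27025 RefSeq promoter windows, the share with a match was 7.63% for NRF2, 5.73% for AP-1, 8.12% for C/EBP, 1.79% for ROR and 5.88% for STAT. These are matches of letters, described without a test.

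In every fasted library the median lost peak stood below that of every fed library. In fresh liver the median lost peak had 34.6, 45.2 and 27.1 normalized reads in fasted libraries A, B and C, against 97.6, 99.6 and 96.6 in fed libraries. In frozen liver it had 22.8, 28.8 and 17.8 in fasted libraries, against 71.5, 79.6 and 69.2 in fed libraries. Medians of fasted and fed libraries did not overlap in either preparation. Fed libraries of a preparation lay close together. Among fasted libraries the deepest, B, had the highest median in both preparations and the shallowest, C, the lowest, and what depth contributes to that order was not tested. In the shallowest library of all, frozen fasted C, 19 of the lost peaks had no read, against 2 in fresh fasted C and 2 in frozen fasted A.

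**Figure D1:**
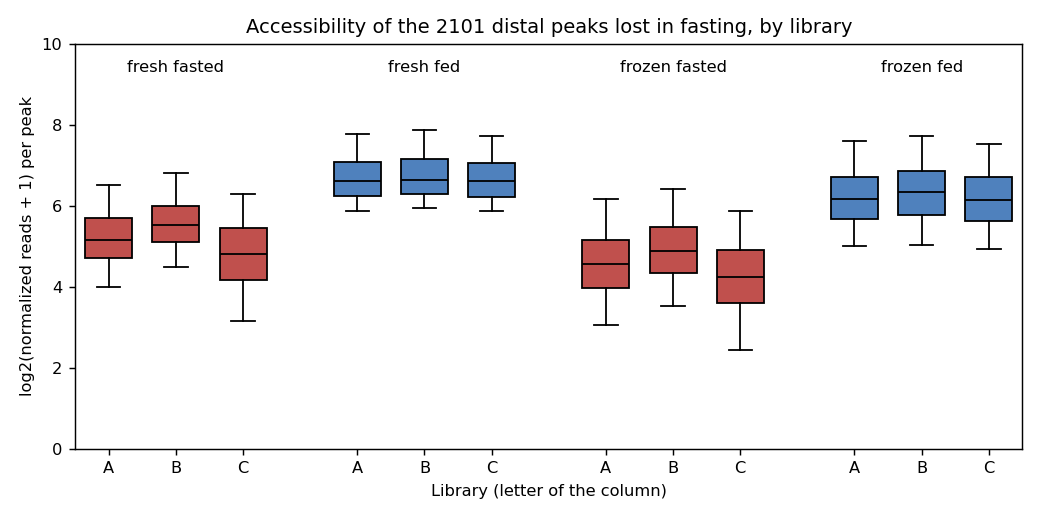
Normalized reads per peak, as log2(reads + 1), over the 2101 lost distal peaks in each of the 12 libraries, with fasted libraries in red and fed ones in blue. Boxes give the quartiles and the median, and whiskers the 5th and 95th percentiles; fasted medians lie between 17.8 and 45.2 normalized reads and fed medians between 69.2 and 99.6.

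Together the lost peaks took 1.17% ± 0.29 of all normalized reads in peaks in fresh fasted and 3.11% ± 0.08 in fresh fed libraries (SD, n = 3 each). In frozen liver they took 0.75% ± 0.17 in fasted and 2.34% ± 0.15 in fed libraries (SD, n = 3 each). Fewer nuclei with an open site and less opening per nucleus cannot be told apart in such bulk libraries.

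The loss was mostly 2- to 4-fold. The median log2 ratio was -1.36 in fresh and -1.54 in frozen liver, and the lowest -4.19 and -4.43. At or below -2 were 218 lost peaks in fresh and 364 in frozen liver, and at or below -3 were 17 and 31. The fresh threshold alone was met by 2349 distal peaks and the frozen one by 3223. At the border, a peak near Plcl2 was inside at -1.10 in fresh and -1.0001 in frozen liver, and one near Nkx6-2 at -1.00003 and -1.29. A peak near Naaladl2 (-0.9996 and -1.03) and one near Sult5a1 (-0.9992 and -1.39) were outside, their fresh ratios just above the threshold. All 6 fasted libraries lay below all 6 fed ones at 1552 lost peaks (73.9%), where 11.1% of distal and 7.79% of all peaks did so. The rule used this contrast, so nothing is read from that share. By the authors' deposited table, 2033 of 2101 had an adjusted p under 0.05 in both preparations, where 8218 of 33996 distal peaks did. That count is of the same contrast in the same libraries, so nothing is read from it either.

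**Figure D2:**
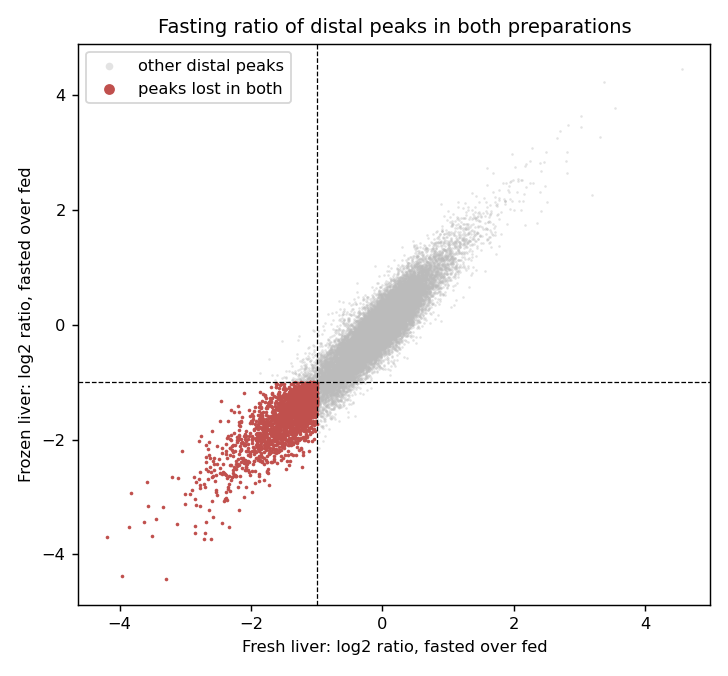
Log2 ratio of fasted over fed means in fresh liver (horizontal) and frozen liver (vertical) for the 33996 distal peaks. The 2101 lost peaks, in red, fill the corner below -1 on both axes (dashed lines), and reach -4.19 in fresh and -4.43 in frozen liver.

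The lowest ratio belonged to a peak 8.18 kb past the start of Insig1 (chr5:28079497-28079697, at its transcript end). Insig1 encodes a protein of the endoplasmic reticulum that holds back SREBP when sterol is plentiful, and insulin and SREBP raise it. The peak had 3.39, 13.0 and 4.52 normalized reads in fresh fasted libraries, against 114, 165 and 89.4 in fresh fed ones. In frozen liver it had 0.91, 6.10 and 4.45 in fasted libraries, against 82.2, 135 and 78.0 in fed ones. It was nearly closed in all 6 fasted libraries and open in all 6 fed ones.

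Insig1 had 8 lost peaks of its 22 distal peaks, the most of any gene, all within 42.9 kb. The 4 at its transcript end, between 7.75 and 8.57 kb from the start, had mean log2 ratios of the 2 preparations from -4.16 to -3.36, and the middle 2 of them overlap and so share reads. The 4 upstream lay 4.92, 24.3, 34.0 and 34.2 kb away, with ratios from -2.40 to -1.10. The weakest of these, at 24.3 kb, was still well open in fasted mice, at 109 ± 42.2 normalized reads in fresh fasted libraries against 239 ± 25.3 in fresh fed ones (SD, n = 3 each).

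Lowest outside Insig1 was an intergenic peak 59.7 kb from Shcbp1, a gene linked to cell division (chr8:4839177-4839377). It had 23.7, 36.9 and 26.0 normalized reads in fresh fasted libraries, against 304, 349 and 227 in fresh fed ones. Frozen fasted libraries had 10.01, 11.3 and 13.3 reads there, against 309, 271 and 232 in frozen fed ones. Groups stood far apart in both preparations. An intergenic peak 200.04 kb from Ankrd55 (chr13:112088313-112088513) had 7.24 ± 1.42 normalized reads in fresh fasted against 118 ± 17.3 in fresh fed libraries, and 8.56 ± 2.95 in frozen fasted against 108 ± 17.8 in frozen fed libraries (SD, n = 3 each).

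A dense group lay nearest to Gm13547 on chromosome 2, inside introns and the last exons of a transcript of another gene. All 6 peaks of the table within its 6.63 kb span were lost, a span drawn from the first to the last lost peak. These were 6 of the 8 distal peaks nearest to Gm13547. The lowest (chr2:29737636-29737836) had 21.7, 34.8 and 26.0 normalized reads in fresh fasted libraries, against 334, 365 and 269 in fresh fed ones. The frozen fasted libraries had 15.5, 23.5 and 24.5, against 298, 320.1 and 232 in the frozen fed ones. The other 5 had mean ratios from -3.06 to -1.34, and none of the 6 had a mean below 11.4 normalized reads in fasted mice of either preparation.

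Scd1, which encodes the liver's main stearoyl-CoA desaturase, had 3 lost peaks. The lowest lay at the transcript end (chr19:44393983-44394183). It had 18.3, 18.2 and 21.5 normalized reads in fresh fasted libraries, against 164, 243 and 122 in fresh fed ones. After freezing, the fasted libraries had 10.9, 18.3 and 13.3 reads, against 158, 231 and 110.4 in fed ones. The fed libraries differed more among themselves than the fasted ones, and the groups did not overlap.

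The lowest peaks of Insig1, Shcbp1, Ankrd55, Gm13547 and Scd1 belong to the 10 lowest ratios, 1 peak per gene, among lost peaks whose mean in fed libraries was at or above the median of lost peaks, 86.2 normalized reads. The others of these 10 lay near Hmx1, a homeobox gene, Stk38l, a protein kinase gene, Fzd1, a Wnt receptor gene, Cers3, a ceramide synthase gene, and Vgll4, whose product binds TEAD factors. Their mean ratios ran from -3.53 at Hmx1 to -2.98 at Vgll4. Below that fed level, 9 lost peaks had ratios under -2.98, of which 3 belonged to Insig1 and the others lay near Dkk4, Atp11a, Irx3, Akt1, Cdh26 and Afap1. The Fzd1 peak was in an intron of a neighbouring gene, 204 kb from the Fzd1 start. At the Hmx1 peak fasted library B stood above A and C in both preparations, with 23.9 normalized reads against 10.2 and 5.65 in fresh and 23.5 against 11.8 and 4.45 in frozen liver. A named gene is the nearest by annotation and need not be the one a peak acts on.

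**Figure D3:**
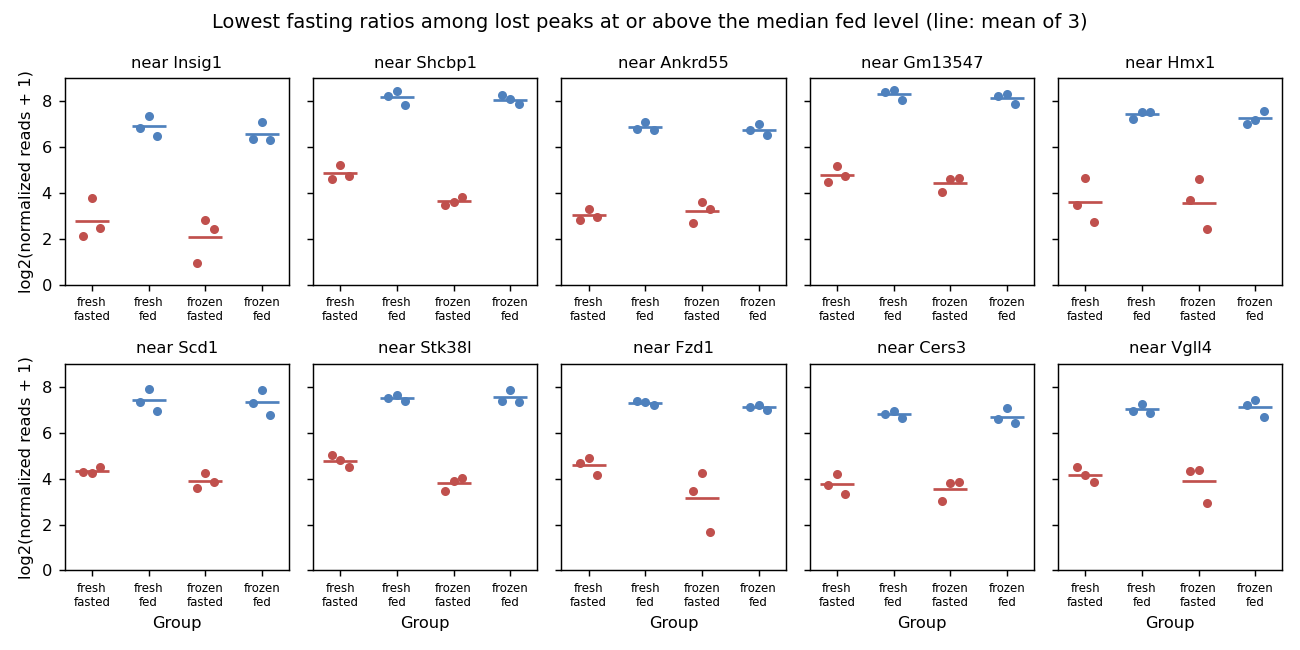
Normalized reads, as log2(reads + 1), in every library for the 10 lowest mean ratios, 1 peak per gene, among lost peaks with a fed mean of at least 86.2 normalized reads. Points are libraries A, B and C and lines the mean of 3; fasted libraries (red) lie below fed ones (blue) in all 10 panels, and at Insig1 they fall as low as 0.91 normalized reads.

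The 3 lost peaks with the highest fed level lay on both sides of the median mean ratio of lost peaks, -1.44. An intronic peak nearest to 4930487H11Rik (chr1:62809689-62809889) was the most open in fed mice. It had 222, 285 and 217 normalized reads in fresh fasted libraries, against 582, 655 and 486 in fresh fed ones. Values from frozen liver were 143, 173 and 107 in fasted libraries, against 473, 468 and 416 in fed ones. Its fasted means, 241 in fresh and 141 in frozen liver, stayed above those of the median distal peak, 95.8 and 93.8, and its mean ratio was -1.46. A peak 123 kb from Nr3c1, which encodes the glucocorticoid receptor, had log2 ratios of -1.14 in fresh and -1.29 in frozen liver. A peak in intron 5 of Acot7, an acyl-CoA thioesterase gene, had -1.35 and -1.70.

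Most lost peaks stood in introns (1108, or 52.7%) and between genes (816, or 38.8%), about as all distal peaks did (51.6% and 41.6%). Exons held 76, which was 9.04% of distal exon peaks, and transcript ends 64, or 8.17%. The share of distal peaks that were lost was 4.25% between 1 and 5 kb from a gene start, 6.02% between 10 and 25 kb and 8.34% beyond 100 kb. The median distance was 24.5 kb for lost peaks and 17.6 kb for distal peaks. Lost peaks were nearly missing from CpG islands, 2 of 917 (0.218%). By chromosome the share ran from 3.98% on X to 6.84% on 18, leaving out Y with its single distal peak.

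A few repeat families held a high share. Of the 125 distal peaks in RMER1 elements, a rodent repeat family, 28 were lost (22.4%), and of the 75 in RMER19B, a long terminal repeat, 15 were (20%). Of the wider ERVK family of long terminal repeats 9.32% were lost, of LINE 5.23% and of SINE 5.86%. The median lost RMER1 peak had a group mean of 57.3 normalized reads in fresh fasted against 152 in fresh fed libraries, and 35.3 in frozen fasted against 102 in frozen fed libraries. The 28 share related sequence, and how reads with several matches were treated was not stated in the labels. None of the 23 distal peaks in rRNA repeats, 26 in satellites and 55 in tRNA repeats was lost. No test was made of these shares.

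**Figure D4:**
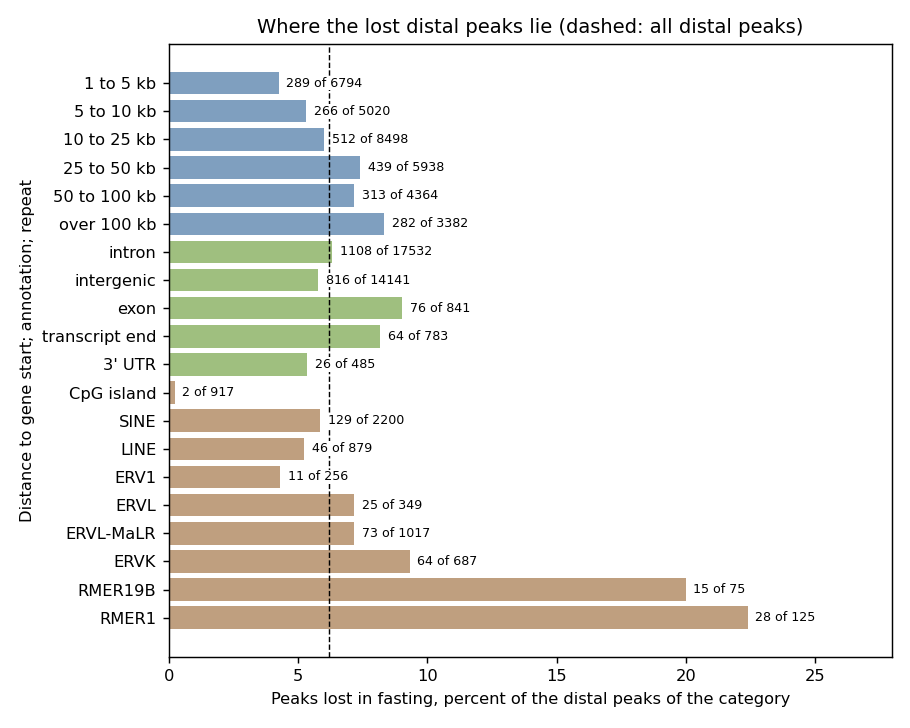
Lost peaks as a percent of the distal peaks of each class, by distance to the gene start (blue), annotation (green) and repeat or CpG island (brown), with counts beside the bars. The dashed line marks the 6.18% of all distal peaks; the bars of RMER1 at 22.4% and RMER19B at 20% reach farthest, and CpG islands stand at 0.218%.

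Lost peaks lay near each other. Another lost peak was centred within 50 kb of 806 of them (38.4%, 95% Wilson interval 36.3 to 40.5, counting error only), while 19.8% of the other distal peaks had a lost peak that close. Within 10 kb the shares were 21.9% and 5.88%. Joined across gaps of up to 50 kb they formed 1643 groups, of which 1295 held a single peak and 83 held 3 or more. The interval takes peaks as independent, and 209 lost peaks had another within 1 kb, so that neighbours can share 1 open region.

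Besides Insig1 and the 6 peaks nearest to Gm13547, the largest groups held 7 peaks across 66.6 kb near Mir6392, Pnpla5 and Sult4a1, and 5 each at Acot7 and Clec2d. Each span here was drawn from the first to the last lost peak. At Acot7 all 5 peaks of the table within 13.1 kb of introns 3 to 5 were lost, with mean ratios from -2.71 to -1.40. These were 5 of the 8 distal peaks of Acot7. At Clec2d, a C-type lectin gene, all 5 within 3.62 kb were lost, with ratios from -1.91 to -1.16. These were 5 of its 10 distal peaks. Adamts17, a secreted protease gene, had 5 lost peaks of 9, and Trio, a large signalling protein gene, 5 of 14.

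The lost peaks were nearest to 1645 genes, of which 1305 had 1 lost peak, 256 had 2 and 84 had 3 or more. Of these genes 50 also had gained distal peaks, 65 of the 476 in all. The share over all genes was not counted, so nothing is read from this. Gene groups are described next by how many of their distal peaks were lost, to be read beside the 6.18% of all distal peaks.

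Among genes of cholesterol synthesis and uptake 16 of 106 distal peaks were lost (15.1%), at 6 of 24 genes, and 8 of the 16 belonged to Insig1. Sqle, which encodes squalene epoxidase, lost both of its distal peaks. Sc5d, a sterol desaturase gene, lost 2, and Msmo1 and Stard4 lost 1 each. The Sc5d peak 29.4 kb away (chr9:42293641-42293841) had 15.3 ± 8.30 normalized reads in fresh fasted against 67.6 ± 7.74 in fresh fed libraries, and 9.92 ± 6.93 in frozen fasted against 60.0 ± 19.3 in frozen fed libraries (SD, n = 3 each).

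Among genes of fatty acid and triglyceride synthesis 15 of 157 were lost (9.55%), where 6.18% of all distal peaks were. Gained were 7 of the 157, where 1.4% of all distal peaks were, so the list stood above both shares. Srebf1 had 3 of 8 with mean ratios from -1.56 to -1.34, Scd1 3 of 9, and Fasn, the fatty acid synthase gene, 2 of 10. Thrsp, also called Spot14, a lipogenic protein, lost 2 of 4, and Dgat2, which makes triglyceride, 2 of 15. The Thrsp peak in its only intron (chr7:97415199-97415399) had 20.4, 23.4 and 26.0 normalized reads in fresh fasted libraries, against 79.9, 80.99 and 69.7 in fresh fed ones. Among frozen libraries the fasted had 10.01, 14.8 and 8.90, against 51.2, 43.0 and 34.2 in the fed. Fasted and fed libraries did not overlap within either preparation.

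Genes of growth hormone and STAT5 signalling lost 17 of 175 (9.71%) at 9 genes. Cish, a STAT5-induced inhibitor of cytokine signals, lost 3 of 6, and Cux2, a transcription factor gene more active in female liver, 4 of 11, all in intron 2. Prlr, the prolactin receptor gene, lost 3 of 18, and Igf1, the gene of the main growth factor under growth hormone, 2 of 20. The Cish peak 8.56 kb from its start (chr9:107305118-107305318) had 44.8, 57.7 and 47.5 normalized reads in fresh fasted libraries, against 133, 179 and 181 in fresh fed ones. Frozen fasted libraries had 31.8, 36.6 and 28.9, against 109.6, 166 and 141 in frozen fed ones. No fasted library reached the lowest fed one.

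Genes of growth, cell cycle and Wnt signalling lost 8 of 93 (8.60%), among them 3 of 6 near Mki67, a marker of dividing cells, and 2 of 8 near Mycn. One peak of Met, the receptor for hepatocyte growth factor, was lost, at a mean ratio of -1.90.

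In other groups the share was below that of all distal peaks. Insulin signalling and FOXO1 targets lost 6 of 163 (3.68%), with both distal peaks of Akt1, a kinase of the insulin pathway. The lower Akt1 peak (chr12:112668787-112668987) had 9.20 ± 4.18 normalized reads in fresh fasted against 72.5 ± 14.1 in fresh fed libraries, and 2.78 ± 3.09 in frozen fasted against 42.0 ± 4.70 in frozen fed libraries (SD, n = 3 each). Circadian clock genes lost 3 of 100 (3%), 1 each at Nfil3, Rora and Bhlhe41, and glucose use and glycogen genes 2 of 97 (2.06%), 1 each at Pklr, the liver pyruvate kinase gene, and Pygl, the glycogen phosphorylase gene. Hepatocyte transcription factors lost 8 of 281 (2.85%), with the lowest ratio, -2.24, near Nr0b2, which encodes SHP, a repressor of bile acid synthesis. Foxa2 and Cebpa had 2 each.

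Genes active in fasting lost few. Of 106 distal peaks of fatty acid oxidation and ketone production genes 3 were lost (2.83%), 1 each at Cpt1a, Ppara and Plin2, and 14 were gained. Genes of gluconeogenesis and amino acid breakdown lost 1 of 222 (0.45%), near Sik1, a kinase gene induced by cAMP. The glucocorticoid receptor and its targets lost 3 of 153 (1.96%), all 3 of them among the 33 distal peaks nearest to Nr3c1. The lowest of these lay 125 kb from the Nr3c1 start and another 123 kb away, each in intron 21 of an annotated transcript. Whether they act on Nr3c1 was not tested. Gained counts are to be read beside the 1.4% of all distal peaks that were gained. The list of gluconeogenesis gained 9 of 222 and that of glucocorticoid targets 9 of 153. That of fatty acid and triglyceride synthesis gained 7 of 157, that of insulin signalling 7 of 163, and hepatocyte transcription factors 3 of 281. That of cholesterol gained 1 of 106 and that of growth hormone 1 of 175. Those of growth, clock and glucose use gained 0 of 93, 0 of 100 and 0 of 97.

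Marker genes of other liver cells had few peaks. Macrophage genes lost 1 of 6 distal peaks, near Csf1r, and endothelial genes 1 of 29, near Sox17. None was lost among 4 of stellate cells, 14 of bile duct cells and 16 of lymphocytes. At gene starts the macrophage and lymphocyte lists had no peak, the endothelial and bile duct lists 3 each and the stellate list 1, and none of these 7 passed the fasting test. Of shorter sets of defining markers, none of 6 for macrophages, 6 for endothelium and 4 for lymphocytes had a start peak, while 6 of 7 for hepatocytes did, with 1 of 5 for stellate cells (Reln) and 1 of 4 for bile duct cells (Sox9). Summed over those hepatocyte start peaks, libraries held 2105 to 2335 normalized reads in fresh fasted, 1949 to 2023 in fresh fed, 2836 to 3311 in frozen fasted and 2498 to 2687 in frozen fed liver. Of the hepatocyte markers Apoa1, Apob and Ttr had 1 lost distal peak each. Over all peaks of the macrophage list the sum was 460 to 543 in fresh fasted and 533 to 566 in fresh fed libraries, and 410 to 512 in frozen fasted and 384 to 472 in frozen fed ones. For the endothelial list it was 3508 to 3698 in fresh fasted and 3569 to 3791 in fresh fed libraries, and 3314 to 3771 in frozen fasted and 3353 to 3667 in frozen fed ones. The stellate list, with 5 peaks at 3 of its 13 genes, was lower in fasted libraries without overlap, at 345 to 398 in fresh fasted and 417 to 508 in fresh fed libraries, and 271 to 338 in frozen fasted and 362 to 474 in frozen fed ones. The bile duct list held 1810 to 2051 in fresh fasted and 2085 to 2088 in fresh fed libraries, and 1715 to 1956 in frozen fasted and 1938 to 1973 in frozen fed ones, so that only the fresh groups stood apart. For the lymphocyte list the sum was 1709 to 1859 in fresh fasted and 1841 to 1931 in fresh fed libraries, and 1883 to 1961 in frozen fasted and 1923 to 2112 in frozen fed ones. The part of other cells in the loss was not tested.

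Whether gene starts changed beside their lost distal peaks was tested on peaks within 1 kb of a start, none of which the rule could choose. Of 1858 such peaks at genes with lost distal peaks, 181 were lower (9.74%) and 293 higher (15.8%) in fasted mice by limma (3 against 3 mice, two-sided, adjusted p under 0.05). Over all 18534 gene start peaks 4.59% were lower and 19.7% higher, and the median log2 difference was 0.085 at genes with lost peaks and 0.12 over all. The share lower was larger beside lost peaks than over all gene starts, and more of them were still higher than lower. That balance rests on the scaling. When each library was instead set to a common median at gene start peaks, which shifts the median of all peaks by -0.12, 288 were lower (15.5%, against 8.62% of all) and 95 higher (5.11%, against 6.47%). The share lower exceeded that of all gene start peaks in both scalings.

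The share lower was 7.68% at genes with 1 lost peak (113 of 1472) and 16.1% with 2 (44 of 274). With 3 or more it was 21.4% (24 of 112). Start peaks of a gene count singly here, and of these 24 Srebf1 gave 6 and Dhrs3 and Prlr 3 each. By distance, 18.6% of the gene start peaks within 5 kb of a lost peak were lower, and 8.71% between 5 and 25 kb. Between 25 and 100 kb 5.17% were lower, and beyond that 3.72%. No minimum gap was set, so a start peak and a lost peak just past 1 kb can share 1 open region. At Prlr, for example, a lost peak lay 1.04 kb from the start, and all 3 start peaks were lower. The share higher ran the other way, at 7.99%, 14.7%, 18.9% and 20.6%. At genes with gained distal peaks 3.77% of gene start peaks were lower and 36.8% higher. Counts moved with single mice, beside lost peaks and over all gene starts alike. Without fasted mouse A 118 gene start peaks were lower (6.35%, against 3.01% of all) and 156 higher (8.40%, against 9.06%). Without fed mouse A 121 were lower (6.51%, against 2.91%) and 160 higher (8.61%, against 10.1%). Without fed mouse B 102 were lower (5.49%, against 2.67%) and 142 higher (7.64%, against 8.86%).

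By list, 21 of 54 gene start peaks of fatty acid and triglyceride synthesis were lower and 7 higher, and 21 of 41 of cholesterol synthesis were lower and 1 higher. In the growth hormone list 3 of 37 were lower, all at Prlr, and 4 higher. In fatty acid oxidation and ketone production 2 of 46 were lower and 23 higher. Median log2 differences were -0.070 for fatty acid and triglyceride synthesis, -0.21 for cholesterol synthesis, 0.033 for the growth hormone list and 0.23 for fatty acid oxidation, beside 0.12 over all gene start peaks. At Srebf1 6 of 7 start peaks were lower, and at Foxa2 4 of 7.

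Scd1 had the largest drop among the named gene starts. Its peak 195 bases before the start (chr19:44407804-44408004) had 35.3, 32.7 and 31.6 normalized reads in fresh fasted libraries, against 130.5, 171 and 92.6 in fresh fed ones. In frozen fasted libraries it had 26.4, 18.3 and 22.3, against 139, 207 and 85.9 in frozen fed ones. The log2 difference was -2.24 ± 0.24 (SE; adjusted p = 0.000299 by limma), with all 3 fasted mice below all 3 fed mice. Both Thrsp start peaks fell, by 1.03 ± 0.13 and 1.04 ± 0.14 on the log2 scale (adjusted p = 0.000636 and 0.000809 by limma), and both Fasn start peaks, by 0.53 ± 0.08 and 0.52 ± 0.08 (adjusted p = 0.00101 and 0.0013).

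Insig1 differed between its start and its distal peaks. In fasted mice the peak 691 bases past its start, in intron 1 (chr5:28072003-28072203), was higher. It had 245, 219 and 248.6 normalized reads in fresh fasted libraries, against 107, 74.3 and 124 in fresh fed ones. From frozen liver it had 259, 257 and 256 in fasted libraries, against 126, 100.3 and 156 in fed ones. All fasted libraries exceeded all fed ones, and the log2 difference was 1.14 ± 0.14 (SE; adjusted p = 0.000587 by limma). The Insig1 peak 0.206 kb before the start had -0.045 ± 0.057 (adjusted p = 0.561 by limma).

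At several genes with large distal losses the start peaks did not pass the test. They were -0.15 ± 0.11 at Shcbp1, 0.08 ± 0.11 at Stk38l, -0.011 ± 0.076 at Adamts17 and -0.15 ± 0.10 at Clec2d (log2 difference ± SE). At Acot7 1 of 3 start peaks was lower, by 0.73 ± 0.25 (adjusted p = 0.0482 by limma), and at Fzd1 1 of 2 was higher, by 0.22 ± 0.06 (adjusted p = 0.0207). At Sc5d 1 of 2 fell by 0.22 ± 0.06 (adjusted p = 0.0208).

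The 250 bases before the starts of Insig1 and Thrsp are shown, from RefSeq GRCm38.p6. At Insig1, with its 8 lost peaks, the start peak overlapping these bases did not pass the test, while those of Thrsp fell. Capitals mark matches to the same motifs.

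Insig1 (chr5:28071162-28071411, plus strand): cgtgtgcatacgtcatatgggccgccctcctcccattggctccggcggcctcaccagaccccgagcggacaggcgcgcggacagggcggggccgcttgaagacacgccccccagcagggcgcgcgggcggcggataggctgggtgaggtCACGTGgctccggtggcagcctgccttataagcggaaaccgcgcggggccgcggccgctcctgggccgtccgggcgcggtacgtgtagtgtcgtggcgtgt
Thrsp (chr7:97417551-97417800, minus strand): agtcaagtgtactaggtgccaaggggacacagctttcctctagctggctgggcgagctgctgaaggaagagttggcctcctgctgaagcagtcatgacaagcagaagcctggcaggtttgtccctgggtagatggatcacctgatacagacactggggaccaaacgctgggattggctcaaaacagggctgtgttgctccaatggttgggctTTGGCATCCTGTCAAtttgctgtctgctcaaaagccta

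The Insig1 promoter held an E-box (CACGTG), and the Thrsp promoter an NF1 palindrome with 1 mismatch allowed. In 300-base windows around gene starts an E-box stood in 7.09% of 27025 promoters, in 9.7% of the 1175 of genes with lost peaks and in 10 of the 110 of genes whose start peak was also lower. The NF1 palindrome stood in 0.962%, 1.11% and 2 of 110, the STAT palindrome in 8.37%, 5.96% and 8 of 110, and the SREBP element (TCACNCCAC) in 1.22%, 1.28% and 2 of 110. No test was made of these shares.

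Frozen against fresh liver is a contrast the rule did not use. Lost peaks were mostly lower in frozen libraries: 1198 were lower (57%) and 31 higher (1.48%) by limma, fitted to the 12 libraries with feeding state as a covariate (two-sided, adjusted p under 0.05). Of all peaks 32.8% were lower and 28.7% higher, and of distal peaks 35.5% and 23.9%. The median log2 difference was -0.55 for lost peaks and -0.11 for distal peaks. With the mouse letter as a block 1526 were lower (72.6%) and 72 higher (3.43%), where 41.8% of distal peaks were lower and 27.5% higher. Without fasted mouse C 50 were higher, without fed mouse B 20 and without fed mouse C 19, where 24.5%, 22.5% and 22.5% of distal peaks were.

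Over the 12 libraries the median mean level was 57.9 normalized reads for lost peaks and 97.8 for all distal peaks. This level includes the fasted values by which the rule chose the lost peaks. In fresh fed libraries the medians were 97.3 and 102.6, and in frozen fed ones 73.9 and 98.2. Low peaks were lower after freezing in general. In the lowest of 4 equal classes of all peaks by mean level the median difference was -0.60 for lost peaks and -0.39 for distal peaks, and in the highest class -0.33, over 22 lost peaks, and 0.15. In each class the lost peaks had the lower median difference. Their level was lower within classes too, at a median of 49.0 against 58.8 normalized reads in the lowest and 227 against 248 in the highest. The classes were cut on a mean that includes the fasted values, so they do not set level aside. Quantile normalization ended the excess of lower calls: 637 lost peaks were lower (30.3%) where 28.7% of distal peaks were, while 125 were higher (5.95%) where 25.5% were. Its median was -0.20 for lost peaks and -0.032 for distal peaks.

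The median difference of frozen and fresh libraries of a mouse was -0.63, -0.65 and -0.57 in fasted mice A, B and C, against -0.47, -0.40 and -0.50 in fed mice. Over all distal peaks it was -0.097, -0.086 and -0.11 in fasted mice, against -0.084, -0.081 and -0.12 in fed mice. The gap between feeding states at lost peaks is made of the same ratios that chose them, and nothing is read from it. At gained distal peaks the median over all libraries was 0.036, with 15.8% lower and 20.8% higher.

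**Figure D5:**
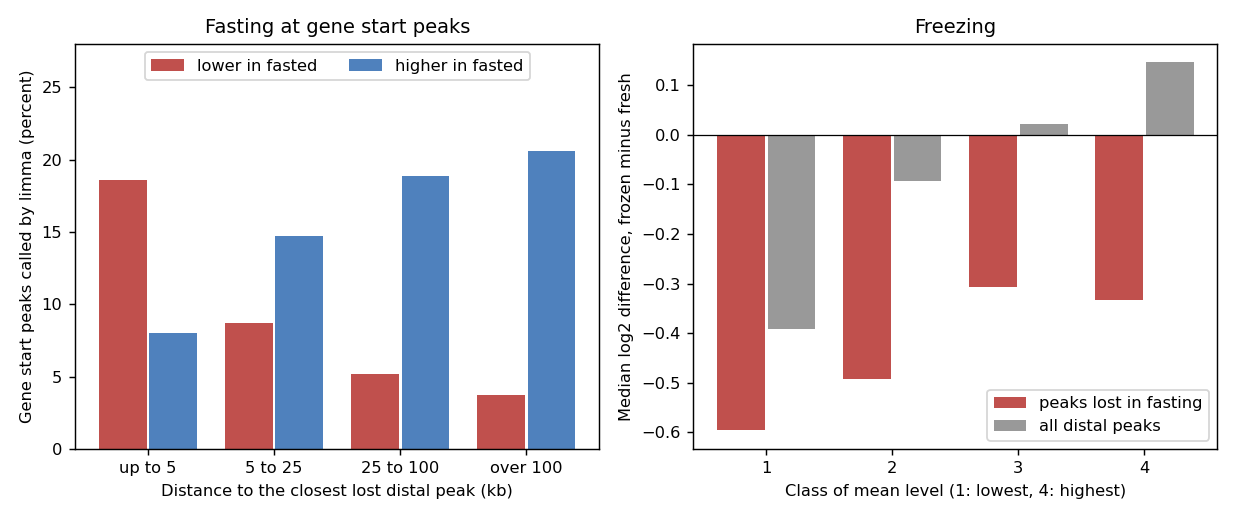
Left, percent of gene start peaks called lower (red) or higher (blue) in fasted mice by limma, by distance to the closest lost distal peak. Within 5 kb, with no minimum gap, 18.6% were lower, and beyond 100 kb 3.72%. This balance shifts toward lower calls when libraries are scaled to gene start peaks. Right, median log2 difference of frozen minus fresh libraries for lost peaks (red) and all distal peaks (grey) in 4 equal classes of mean level over all peaks; lost peaks stand at -0.60 in the lowest and -0.33 in the highest class.

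The largest drop after freezing was at an intergenic peak 68.2 kb from Ercc4, a DNA repair nuclease gene (chr16:13041447-13041647). In frozen liver it had 3.64, 8.72 and 0 normalized reads in fasted libraries and 22.6, 36.6 and 16.6 in fed ones. In fresh liver it had 14.2, 30.6 and 14.7 in fasted libraries and 84.3, 102 and 76.9 in fed ones. Frozen libraries lay below fresh ones within each feeding state, and the log2 difference was -2.14 ± 0.42 (SE; adjusted p = 0.000322 by limma). Peaks near Bend5 and Lyplal1 followed at -2.07 ± 0.27 and -2.01 ± 0.27.

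A few went the other way. A peak 360 kb from Zfat, a zinc finger gene (chr15:67899063-67899263), had 33.7, 85.4 and 49.0 normalized reads in frozen fasted and 113, 143 and 133 in frozen fed libraries, against 14.9, 25.4 and 22.6 in fresh fasted and 43.5, 38.5 and 51.9 in fresh fed ones. Frozen libraries lay above fresh ones in both feeding states, and the log2 difference was 1.41 ± 0.20 (SE; adjusted p = 9.07e-06 by limma). Peaks near 4921525O09Rik and Pdlim1 had 1.20 ± 0.15 and 0.93 ± 0.18. The peak near Mki67 was lower in frozen liver, at -1.47 ± 0.27 (adjusted p = 0.000145 by limma), while that near Ankrd55 did not pass, at 0.03 ± 0.19.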

How the data were processed

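The authors deposited a table of merged 200-base peaks on mm10 with annotation and, per the file headers, normalized reads per library. This signal was counted per peak and divided by 1 size factor per library before it was deposited, and all values were whole multiples of 1 step per library to within 1e-06 of a read, from which depth was taken. The table also holds the authors' log2 fold changes, adjusted p-values and a peak score, which was not used. DESeq2, HOMER, SAMtools and BWA 0.7.5a-r405 appear in the submitters' processing notes without their roles. How peaks were called and duplicates handled is not given in the sources used here. The smallest depth was 51 reads in the median peak, the largest 217.

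Column letters match no mouse number. Libraries of 1 letter correlated at r = 0.329 to 0.640 after removal of group means (highest other r 0.102), so letters were taken as mice, a pairing that comes from the data. The labels' mouse numbers were not used as pairs.

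Lost peaks were found with a pseudocount of 1. limma 3.58.1 in R 4.3.3 was fitted on log2(value + 1) over all peaks with a trended prior and Benjamini-Hochberg adjustment. Fold changes on this scale understate those of low peaks. The fasting fit took the mean of both libraries of a mouse, and the freezing fit all 12 libraries. The fits were checked on simulated libraries drawn independently of each other, with a fixed spread not estimated from these mice. That check covers neither the spread among these mice nor the correlation between the fresh and frozen library of a mouse. Peaks were named by rule: the 10 lowest ratios among lost peaks at or above their median fed level (1 per gene), the genes with most lost peaks, up to 3 genes of each of 16 lists, the highest fed levels, and the largest freezing differences each way, with start peaks of 12 genes. Values of further peaks of named genes, and Trio, were chosen after being seen. Members and lists were chosen with earlier results of these data known. Sequences are from RefSeq, and lost peaks on chromosome 18 were not searched for them.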

Additional observations from a re-analysis of the deposited data

How the results depend on the processing

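The number of lost peaks was between 1463 (pseudocount 10) and 2692 (libraries scaled to gene start peaks) over the other settings, and 1660 to 2616 when 1 mouse was left out, the lowest without fasted mouse C. Without the lowest 25% of peaks (657 left) 333 lost peaks were lower in frozen liver (50.7%, against 28.3% of distal peaks). After quantile normalization 637 were lower (30.3%, against 28.7%), and without 1 mouse 1006 to 1370 (47.9% to 65.2%, against 31.6% to 36.5%). Higher were 17 without the lowest 25% (2.59%, against 31.8%) and 125 after quantile normalization (5.95%, against 25.5%). With the replicate block 72 were higher (3.43%, against 27.5%), and without 1 mouse 19 to 50 (0.904% to 2.38%, against 21.8% to 24.5%). The median freezing difference was -0.45 with a pseudocount of 10, -0.42 without the lowest 25%, -0.62 with gene start scaling and -0.20 after quantile normalization. At gene starts of genes with lost peaks, gene start scaling gave 288 lower and 95 higher and turned the median difference to -0.039, against 0.085 as reported, because it moves all peaks by -0.12. Quantile normalization gave 0.061. With 12 libraries as separate samples 491 were higher (26.4%, against 33.1% of all gene start peaks) and 232 lower (12.5%, against 6.58%). Without 1 mouse 102 to 164 were lower (5.49% to 8.83%, against 2.67% to 4.59%). In those settings 142 to 252 were higher (7.64% to 13.6%, against 8.86% to 17.3%). The share with another lost peak close by was 21.9% at 10 kb and 48.6% at 100 kb, as the distance sets. Where not stated, the cause was not tested. The block changed no other count past 1.5 times. For peaks named singly, 523 of 581 freezing values and 247 of 263 start values kept their side of the threshold without reversing a call, and 30 and 13 of these, none of them a call, turned sign. Count tests on whole reads were not run: the step of 1 read had to be found from the lowest values of a column alone, which failed in 8 of 12 columns, although steps fitted over all values gave whole reads. Also, motif shares in the middle 100 bases were not run, since no genome was used here. Peaks of few reads in the shallowest library, with 8 reads in its median lost peak, limit all ratios.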
